A study of Mus musculus with 24 samples.

Results

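Forebrain RNA of TgCRND8 mice aged 150 days was set against that of control mice of the same age, across every gene with a usable probe set on the array. The comparison took the 8 arrays titled for day 150, 4 TgCRND8 and 4 control with 1 mouse each, out of 24 arrays in the series. TgCRND8 mice carry APPSwe/Ind, a transgene for human amyloid precursor protein with the Swedish and Indiana mutations, and the controls were littermates of wild type. The series holds 8 further arrays at 70 days and 8 at 80 days, split evenly between the same genotypes. The labels used here give no strain, no sex and no promoter for the transgene. Published descriptions of the line name a hamster prion protein gene promoter, which is active in neurons and in other brain cells. The tissue was whole forebrain, without olfactory bulb, cerebellum and brainstem, so each level is an average over all its cell types, and more cells of a type and more RNA per cell cannot be told apart.

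In this mouse line amyloid β peptide collects in plaques of the cortex and hippocampus during adult life. Microglia, the phagocytes of the brain, gather at plaques and switch on a set of genes that depends on the lipid-sensing receptor Trem2, which signals through the adaptor Tyrobp; lysosomal proteases and phagocyte surface proteins are among them. Astrocytes near plaques enlarge and fill with the intermediate filament proteins Gfap and vimentin.

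The deposited values were log2 signals, on which a difference of 1 is a 2-fold change. The 8 arrays had medians between 4.31 and 4.36, and pairwise correlations between genotypes (median 0.996) were as high as within them (median 0.996). Each of 18193 genes was read from its brightest probe set, and the median genotype difference over all of them was 0.0004. Neuronal and myelin markers were bright in both genotypes, as in Camk2a, a kinase of excitatory neurons (mean 10.87 in TgCRND8 and 10.83 in control forebrain), and Mbp, a protein of myelin (12.74 in TgCRND8 and 12.81 in control forebrain). Xist, which is transcribed from the silenced X chromosome in females and was looked at outside the naming rule, lay between 9.55 and 9.85 on all 8 arrays.

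At day 150, 22 genes were higher in TgCRND8 forebrain at a limma adjusted p under 0.05 (Benjamini-Hochberg over all genes), and 0 were lower. That is 0.121% of the genes tested in the one direction and 0% in the other. The genes that rose are known from microglia and other phagocytes, with Gfap, Vim and Osmr known from reactive astrocytes and Rims1 from neurons. Below this threshold the directions were near balance: at an unadjusted p under 0.05, 359 genes (1.97%) were higher and 437 (2.4%) were lower. The 4 TgCRND8 arrays were each above every control array for 279 genes (1.53%) and each below for 266 (1.46%).

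For each of the 22 genes that rose, the TgCRND8 and control arrays did not overlap. The smallest rise among them was 1.28-fold, for Ctsd, and the largest 3.02-fold, for Cst7. The comparison was repeated 8 times, each time without 1 of the day 150 arrays, and 12 of the 22 passed every time. The count of passing genes was 12 when control array 2 was left out. For the other 10 genes the number of these 8 fits that they passed is given beside them.

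**Figure D1:**
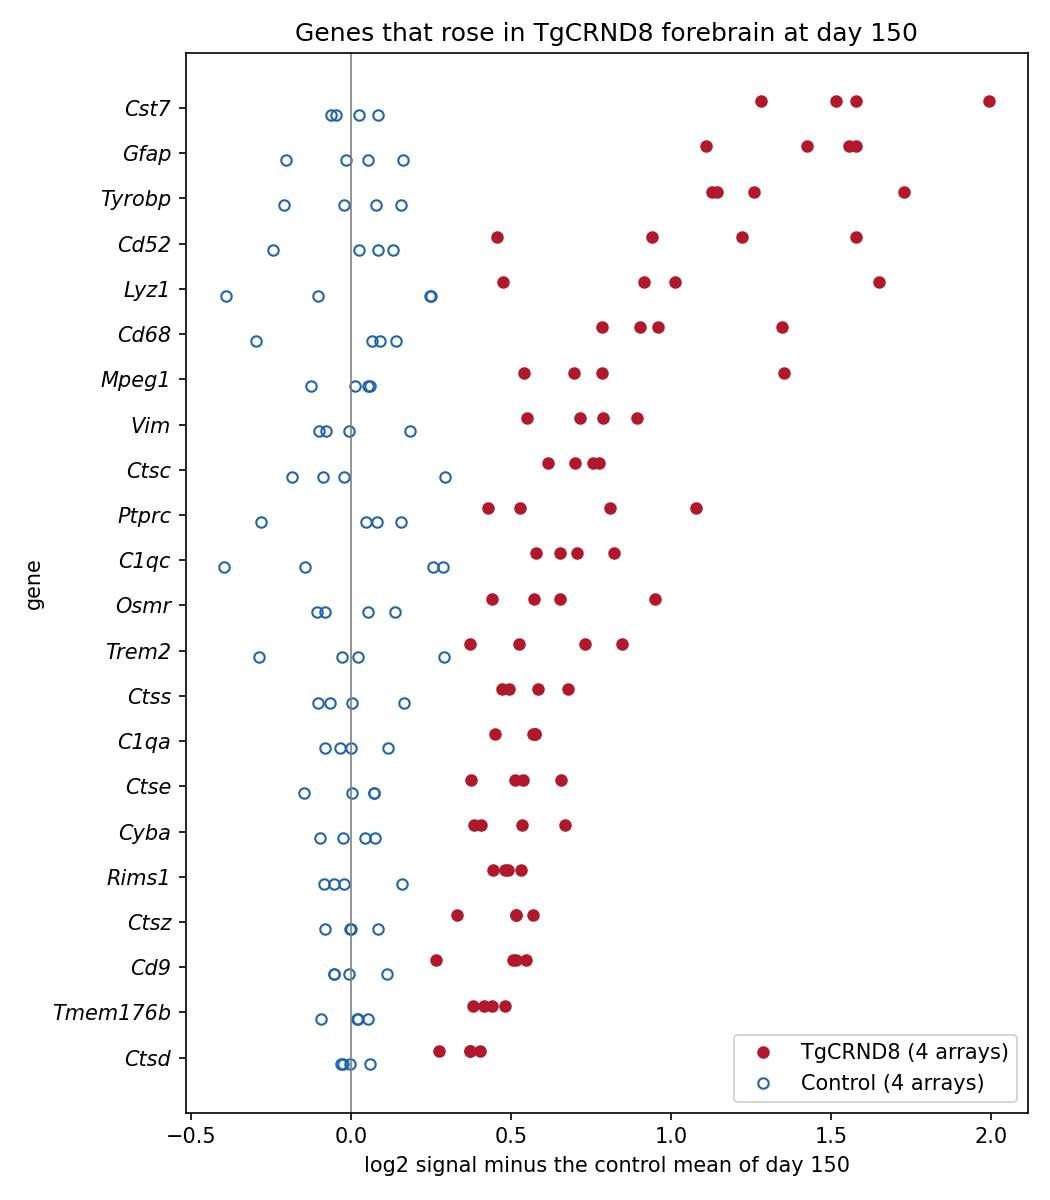
Log2 signal of each day 150 array minus the control mean of that gene, for the 22 genes that rose; filled points are the 4 TgCRND8 arrays and open points the 4 control arrays. All TgCRND8 points of a gene lie right of its control points, with the widest gap for Cst7 (difference 1.59) and the narrowest for Trem2 (difference 0.62).

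Cst7 encodes cystatin F, an inhibitor that enters lysosomes and acts on the cathepsins that activate other proteases. Its signal was 4.95, 4.24, 4.54 and 4.48 on TgCRND8 arrays 1 to 4, against 2.90, 3.04, 2.98 and 2.91 on control arrays 1 to 4. The control values lay close together near the dim end of the array, while the TgCRND8 values spread more widely (SD 0.30 against 0.067, n = 4 each). Cst7 rose by 1.59 (SE 0.11, limma adjusted p = 5.49e-10), and the gap between the lowest TgCRND8 array and the highest control array was wider than either group's own range. Of the 5 other cystatin genes measured 0 passed. Cst3, the abundant secreted cystatin C, differed by 0.09 (11.84 in TgCRND8 and 11.74 in control forebrain, 95% interval -0.11 to 0.30).

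Promoter windows of Cst7, Trem2, C1qc and Gfap, which rose, and of the cholesterol gene Hmgcs1 are printed to show which letters stand next to the start sites of genes the results turn on. Each runs from 250 bases before to 50 after the annotated start, 5′ to 3′ on the gene's strand, from RefSeq on mouse build GRCm38.p6. In the first 4, capitals mark matches to the core of the myeloid factor PU.1 (GAGGAA), an AP-1 site (TGANTCA) or a STAT site (TTCNNNGAA). In Hmgcs1, capitals mark the sterol response element (TCACNCCA) and the CCAAT box (CCAAT). All motifs were searched on both strands, so the PU.1 core can read TTCCTC and the CCAAT box ATTGG.
Cst7, chr2:150570165-150570464, plus strand: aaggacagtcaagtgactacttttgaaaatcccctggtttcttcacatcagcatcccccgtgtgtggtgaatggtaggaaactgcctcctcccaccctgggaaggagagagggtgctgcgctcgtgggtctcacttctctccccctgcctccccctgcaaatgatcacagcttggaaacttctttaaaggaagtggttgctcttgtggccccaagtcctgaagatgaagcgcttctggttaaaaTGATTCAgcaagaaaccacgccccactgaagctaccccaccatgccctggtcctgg
Trem2, chr17:48346151-48346450, plus strand: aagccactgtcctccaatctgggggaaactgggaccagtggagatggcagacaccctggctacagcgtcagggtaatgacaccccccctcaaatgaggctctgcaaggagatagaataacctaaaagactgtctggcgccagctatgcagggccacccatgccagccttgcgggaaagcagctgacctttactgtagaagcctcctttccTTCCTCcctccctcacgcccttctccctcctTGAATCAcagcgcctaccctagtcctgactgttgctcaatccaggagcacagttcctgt
C1qc, chr4:136892865-136893164, minus strand: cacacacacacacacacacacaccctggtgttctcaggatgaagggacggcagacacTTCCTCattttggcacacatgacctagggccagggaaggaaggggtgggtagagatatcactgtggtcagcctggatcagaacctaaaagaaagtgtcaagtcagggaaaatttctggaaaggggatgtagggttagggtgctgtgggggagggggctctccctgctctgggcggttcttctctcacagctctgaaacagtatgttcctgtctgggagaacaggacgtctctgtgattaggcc
Gfap, chr11:102897151-102897450, minus strand: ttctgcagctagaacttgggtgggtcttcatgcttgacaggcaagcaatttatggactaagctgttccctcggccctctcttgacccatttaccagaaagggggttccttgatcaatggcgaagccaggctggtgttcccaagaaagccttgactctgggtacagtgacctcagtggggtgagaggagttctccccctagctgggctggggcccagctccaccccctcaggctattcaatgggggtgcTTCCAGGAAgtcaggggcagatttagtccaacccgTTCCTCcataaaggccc
Hmgcs1, chr13:119690101-119690400, plus strand: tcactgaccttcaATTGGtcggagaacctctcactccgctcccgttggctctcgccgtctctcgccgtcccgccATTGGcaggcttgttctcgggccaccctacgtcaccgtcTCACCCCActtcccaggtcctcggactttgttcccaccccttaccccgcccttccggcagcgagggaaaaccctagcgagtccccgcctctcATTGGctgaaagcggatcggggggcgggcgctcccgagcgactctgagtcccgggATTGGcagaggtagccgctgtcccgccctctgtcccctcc

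With the start counted as position 0, the AP-1 letters of Cst7 began at -6 and those of Trem2 at -9, and Trem2 also held the PU.1 core at -40. C1qc held the PU.1 core at -193, and Gfap held STAT letters at -2 and the PU.1 core at 33. No 2 capital runs of a window overlap. A window was given for 18 of the 22 genes that rose, and Tyrobp, C1qa, Cd52 and Ctse had none. The PU.1 core stood in 10 of these 18 (55.6%), against 30.5% of 14452 measured genes with a window and 28.3% of all 32851 windows. AP-1 letters stood in 4 of 18 (22.2%), against 7.5% of measured genes and 7.8% of all windows, and STAT letters in 2 of 18 (11.1%), against 8.6% and 8.3%. These are matches of letters, given as a description and not as sites of binding, and a window without a match says only that the letters are not in it.

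Trem2 binds lipids and lipoproteins at the microglial surface, and Tyrobp carries the cytoplasmic motif through which it signals. Tyrobp read 8.14, 8.27, 8.73 and 8.15 on the TgCRND8 arrays and 6.80, 7.09, 7.16 and 6.99 on the control arrays, a rise of 1.31 (SE 0.18, limma adjusted p = 0.00076). Trem2 read 5.56, 5.35, 5.20 and 5.67 in TgCRND8 forebrain and 4.80, 4.85, 5.12 and 4.54 in control forebrain, a rise of 0.62 (SE 0.12, limma adjusted p = 0.0326). The groups came closest in Trem2, where the highest control array and the lowest TgCRND8 array were both number 3. Trem2 passed in 2 of the 8 fits that left out an array, with a limma adjusted p up to 0.23. A second, dimmer Trem2 probe set differed by -0.07 (3.91 in TgCRND8 and 3.97 in control forebrain), so the call rests on the brighter one.

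Other listed genes of this pathway did not pass. Of 21 measured genes of Trem2 and Tyrobp signalling, 10 were higher and 11 lower, with a median of -0.0035. The 2 that rose were the receptor and adaptor just given, where 0.121% of all genes rose. At an unadjusted p under 0.05, 5 were higher and 0 lower, against 1.97% and 2.4% of all genes. Without overlap 3 were higher, against 1.53% of all genes. Of the members given next, Syk and Plcg2 were named after their values were seen. Syk, the kinase that docks on Tyrobp, differed by -0.19 (3.91 in TgCRND8 and 4.10 in control forebrain, 95% interval -0.39 to 0.00), and the phospholipase gene Plcg2 by -0.01 (4.82 in TgCRND8, 4.83 in control). Blnk, an adaptor below Syk, had the smallest p of the rest, at 0.23 (6.31 in TgCRND8, 6.08 in control, limma adjusted p = 0.999).

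Fc receptors take up antibody-coated material. Among 7 of their genes 0 passed and the median was -0.0003. Fcgr3 stood apart from the others, with 6.27, 6.23, 6.18 and 6.43 on the TgCRND8 arrays and 5.59, 5.76, 5.79 and 5.93 on the control arrays. These groups did not overlap, at a difference of 0.51 (limma adjusted p = 0.186). Fcgr3 passed with array weights (limma adjusted p = 0.0155), on the day 150 arrays alone (0.0293) and on those arrays with the replicate block (0.0215). Fcer1g, a signalling chain shared by some of these receptors, differed by 0.11 (5.74 in TgCRND8, 5.64 in control).

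C1q, which binds debris and aggregates and starts the classical complement pathway, is built from 3 chains whose genes C1qa, C1qb and C1qc lie side by side in the genome. C1qa read 7.89, 7.77, 7.89 and 7.89 on the TgCRND8 arrays and 7.24, 7.28, 7.43 and 7.32 on the control arrays, a rise of 0.54 (SE 0.085, limma adjusted p = 0.00258). C1qc read 7.08, 7.03, 7.20 and 6.96 in TgCRND8 forebrain, against 6.23, 5.98, 6.63 and 6.66 in control forebrain, a rise of 0.69 (SE 0.11, limma adjusted p = 0.00278). Neither gene's groups overlapped, although C1qc varied less among TgCRND8 arrays (SD 0.10) than among control arrays (SD 0.33). C1qb read 7.66, 7.70, 7.98 and 7.88 on the TgCRND8 arrays and 7.15, 7.22, 7.26 and 7.38 on the control arrays, a difference of 0.55 that missed the threshold (limma adjusted p = 0.0538).

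The proteases that C1q carries were near level and dim: C1s1 differed by -0.08 (3.03 in TgCRND8 and 3.11 in control forebrain) and C1ra by 0.03 (3.09 in TgCRND8, 3.06 in control). Of 16 later complement and complement receptor genes with a probe set of a single gene symbol, 11 were higher, 5 lower and 0 passed (median 0.07). A probe set that carries several complement gene symbols stands outside that list. It was higher by 0.70 without overlap (6.72 in TgCRND8, 6.02 in control, limma adjusted p = 0.00291 over all probe sets). The receptor integrins Itgax (difference 0.33, limma adjusted p = 0.546) and Itgb2 (0.37, 0.563) had the smallest p of that list, and neither overlapped between groups.

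**Figure D2:**
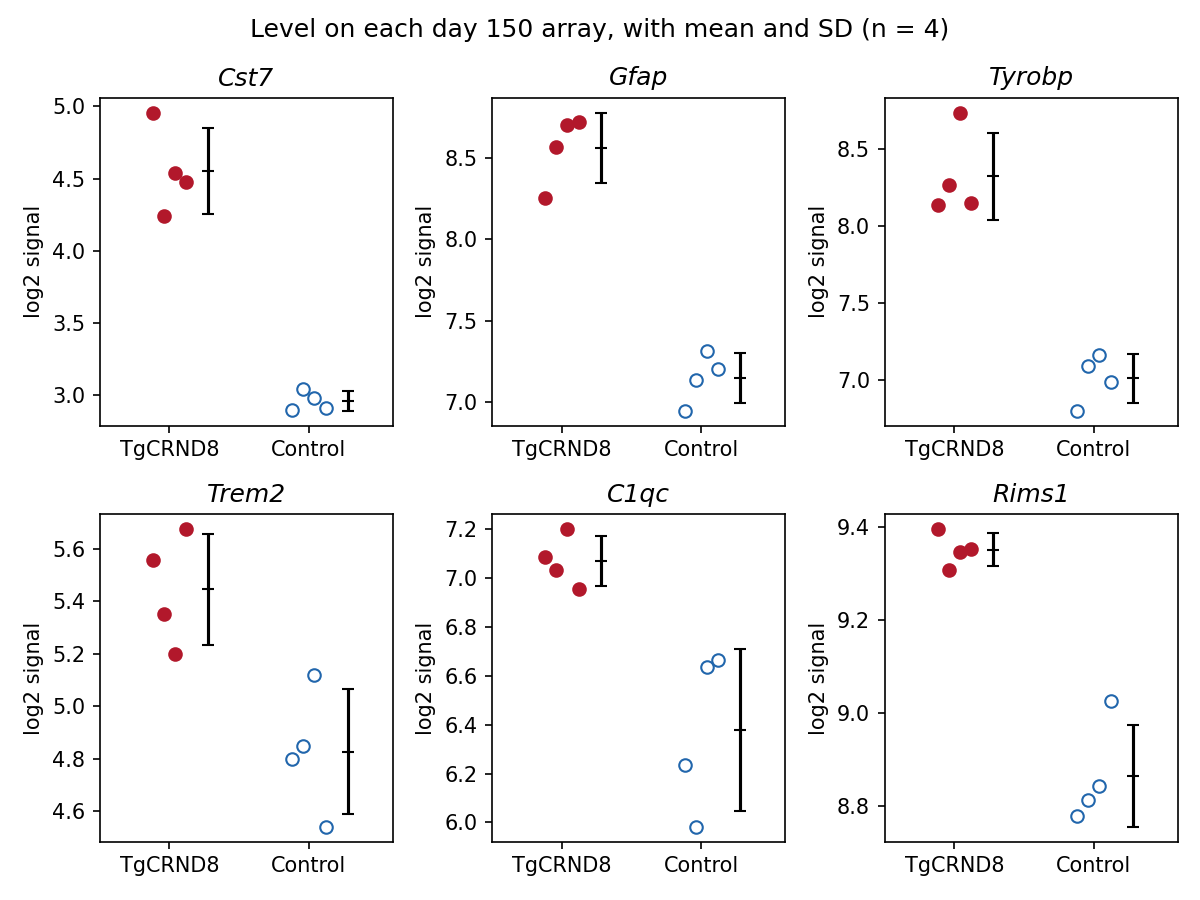
Log2 signal of 6 of the genes that rose on each day 150 array, TgCRND8 (filled) left of control (open), with the mean and SD of 4 arrays beside each group. The groups do not overlap in any panel; Trem2 has the narrowest gap, and Rims1 has the tightest TgCRND8 values (SD 0.036).

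Cathepsins are the proteases of lysosomes. Of the 13 measured, 10 were higher and 5 rose, with a median of 0.24 against 0.0004 over all genes. Of all genes 50.1% were higher and 0.121% rose. This list, like the others, was chosen with earlier results of these data known. Counts set beside such shares are therefore descriptions and not tests. Ctss, a cysteine protease typical of microglia, read 9.41, 9.39, 9.59 and 9.50 on the TgCRND8 arrays and 8.81, 8.92, 8.85 and 9.08 on the control arrays (rise 0.56, SE 0.089, limma adjusted p = 0.00258). Ctsc, which activates other proteases and is a target of cystatin F, read 5.95, 5.79, 5.87 and 5.93 in TgCRND8 forebrain and 5.15, 5.08, 4.99 and 5.47 in control forebrain. It rose by 0.71 (limma adjusted p = 0.00681, 7 of 8 fits), on its brightest probe set, while the 2 dimmer ones differed by 0.13 and 0.07.

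The other cathepsins that rose were read with less margin. Ctsz rose by 0.48 (8.06 in TgCRND8 and 7.58 in control forebrain, limma adjusted p = 0.0108, 5 of 8 fits). Its dimmer probe sets were higher by 0.61 and 0.53, without overlap between groups. Ctsd, the main aspartic protease of lysosomes, rose by 0.36 (9.27 in TgCRND8, 8.92 in control, limma adjusted p = 0.0157, 2 of 8 fits). Ctse, an aspartic protease of endosomes, rose by 0.52 (4.81 in TgCRND8, 4.29 in control, limma adjusted p = 0.0326, 1 of 8 fits), and its dimmer probe set differed by -0.12. The widely expressed Ctsb (0.12, 95% interval -0.03 to 0.27) and Ctsl (0.05, -0.14 to 0.23) did not pass, and Ctsh differed by 0.46 without passing (limma adjusted p = 0.122).

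Other lysosomal genes leaned the same way with small values. Of 24 lysosomal hydrolases, 21 were higher, 3 lower and 0 passed (median 0.10), where 50.1% of all genes were higher. Gusb, the lysosomal β-glucuronidase, differed most, with 5.15, 4.67, 4.88 and 4.90 on the TgCRND8 arrays and 4.20, 4.29, 4.50 and 4.50 on the control arrays (difference 0.53, limma adjusted p = 0.203). Of 22 genes for lysosomal membrane proteins and the proton pump, 15 were higher (median 0.08) and 1 rose, against 0.121% of all genes. That one was Cd68, a glycoprotein of the phagocyte endolysosome, at 5.41, 5.36, 5.24 and 5.80 in TgCRND8 forebrain and 4.54, 4.52, 4.16 and 4.59 in control forebrain, a rise of 1.0 (SE 0.16, limma adjusted p = 0.00258). Lamp1, a lysosomal membrane protein of most cells, differed by -0.01 (9.67 in TgCRND8, 9.68 in control, 95% interval -0.13 to 0.11).

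General phagocyte markers had a median of 0.31. Of 23 measured, 20 were higher, 3 lower, 12 did not overlap between groups and 5 rose, Cd68 among them. Over all genes 50.1% were higher, 1.53% did not overlap in that direction and 0.121% rose. The list was chosen with earlier results of these data known, so these counts describe it and test nothing. Mpeg1, a pore-forming protein of macrophages, read 6.46, 5.65, 5.89 and 5.81 on the TgCRND8 arrays and 5.12, 4.98, 5.17 and 5.16 on the control arrays (rise 0.84, SE 0.13, limma adjusted p = 0.00258). Its first TgCRND8 array was well above the other three. Ptprc, the CD45 phosphatase of leukocytes and microglia, read 4.27, 4.17, 4.82 and 4.56 in TgCRND8 forebrain and 3.79, 3.46, 3.83 and 3.90 in control forebrain, a rise of 0.71 (limma adjusted p = 0.00258). The call on Ptprc comes from 1 of its probe sets, since a dimmer one differed by -0.18 (2.70 in TgCRND8 and 2.88 in control forebrain).

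Cd52, a small glycoprotein on the surface of leukocytes and microglia, was uneven among TgCRND8 arrays. These read 4.46, 4.95, 5.58 and 5.22 (SD 0.47), and its control arrays read 4.03, 4.13, 3.76 and 4.09 (SD 0.17). The rise was 1.05 or 2.07-fold (SE 0.21, limma adjusted p = 0.0348), and it passed in 1 of 8 fits, with a limma adjusted p up to 0.301. Lyz1, a lysozyme, read 7.45, 6.91, 8.09 and 7.36 on the TgCRND8 arrays and 6.33, 6.05, 6.68 and 6.69 on the control arrays (rise 1.01, SE 0.18, limma adjusted p = 0.0111, 5 of 8 fits). Array 3 was highest and array 2 lowest in TgCRND8 forebrain for Lyz1. A dimmer Lyz1 probe set differed by 0.85 (4.40 in TgCRND8, 3.56 in control). The dimmest differed by 0.18 (2.98 in TgCRND8, 2.80 in control), with overlap between groups. The neighbouring, near-identical gene Lyz2 read 6.18, 5.95, 6.70 and 6.20 in TgCRND8 forebrain and 5.51, 5.51, 5.58 and 5.70 in control forebrain, a difference of 0.68 that did not pass (limma adjusted p = 0.0835). How far the probe sets tell these copies apart is uncertain.

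Of 6 measured phagocyte oxidase genes 1 passed, where 0.121% of all genes rose. That gene was Cyba, the small membrane subunit of this superoxide-making enzyme. It read 5.34, 5.32, 5.60 and 5.47 in TgCRND8 forebrain, against 4.84, 5.01, 4.98 and 4.91 in control forebrain (rise 0.50, SE 0.10, limma adjusted p = 0.033, 1 of 8 fits). Its partner Cybb, the large catalytic subunit, was dim and differed by 0.08 (3.17 in TgCRND8, 3.09 in control, 95% interval -0.12 to 0.27), and the list median was 0.12 with all 6 higher.

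Among 16 tetraspanin and four-span membrane proteins, 9 were higher and 2 rose (median 0.03), where 50.1% and 0.121% of all genes did. At an unadjusted p under 0.05, 4 were higher and 0 lower, against 1.97% and 2.4% of all genes. Without overlap 5 were higher, against 1.53% of all genes. Cd9, a tetraspanin of many glial cells, read 8.45, 8.20, 8.45 and 8.49 on the TgCRND8 arrays, against 7.89, 7.89, 7.93 and 8.05 on the control arrays (rise 0.46, SE 0.074, limma adjusted p = 0.00258). Tmem176b, a four-span protein of myeloid cells, read 8.64, 8.67, 8.70 and 8.74 in TgCRND8 forebrain, against 8.28, 8.16, 8.28 and 8.31 in control forebrain (rise 0.43, SE 0.079, limma adjusted p = 0.0122, 6 of 8 fits). The tetraspanin Cd81 differed by 0.05 (10.35 in TgCRND8, 10.30 in control).

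Markers of microglia at plaques and of resting microglia were counted separately. Of 33 plaque-associated microglia genes, 31 were higher and 8 rose (Cst7, Tyrobp, Trem2, Cd68, Cd52, Cd9, Ctsd and Ctsz), with a median of 0.17. Over all genes 50.1% were higher and 0.121% rose. Both lists were chosen with earlier results of these data known, so their counts are a description. Apoe, a lipid carrier made by astrocytes and microglia, read 12.17, 12.09, 12.13 and 12.27 on the TgCRND8 arrays and 12.19, 12.02, 12.17 and 12.16 on the control arrays (difference 0.03, 95% interval -0.10 to 0.16). Its groups overlapped fully. Clec7a, a surface receptor of the same programme, was dim and differed by 0.36 without passing (3.58 in TgCRND8, 3.22 in control, limma adjusted p = 0.687). Of 24 measured homeostatic microglia genes, 19 were higher and 0 passed in either direction (median 0.10). At an unadjusted p under 0.05, 7 of these genes were higher and 1 was lower, against 1.97% and 2.4% of all genes. Of the same list 4 were higher without overlap, against 1.53% of all genes. Gpr34, a lysophospholipid receptor of microglia, differed most, with 5.43, 5.66, 6.29 and 5.89 on the TgCRND8 arrays and 4.88, 5.33, 5.52 and 5.46 on the control arrays (difference 0.52, limma adjusted p = 0.999). Its groups overlapped, and it passed on the day 150 arrays with the replicate block (limma adjusted p = 0.0305). P2ry12, a purine receptor of resting microglia, differed by 0.11 (7.16 in TgCRND8, 7.05 in control, 95% interval -0.18 to 0.40), and Tmem119, which marks microglia against other macrophages, by 0.11 (6.20 in TgCRND8, 6.10 in control, -0.06 to 0.27). Csf1r, the growth factor receptor on which microglia depend, differed by 0.24 (9.71 in TgCRND8, 9.47 in control, 0.03 to 0.46, limma adjusted p = 0.999).

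**Figure D3:**
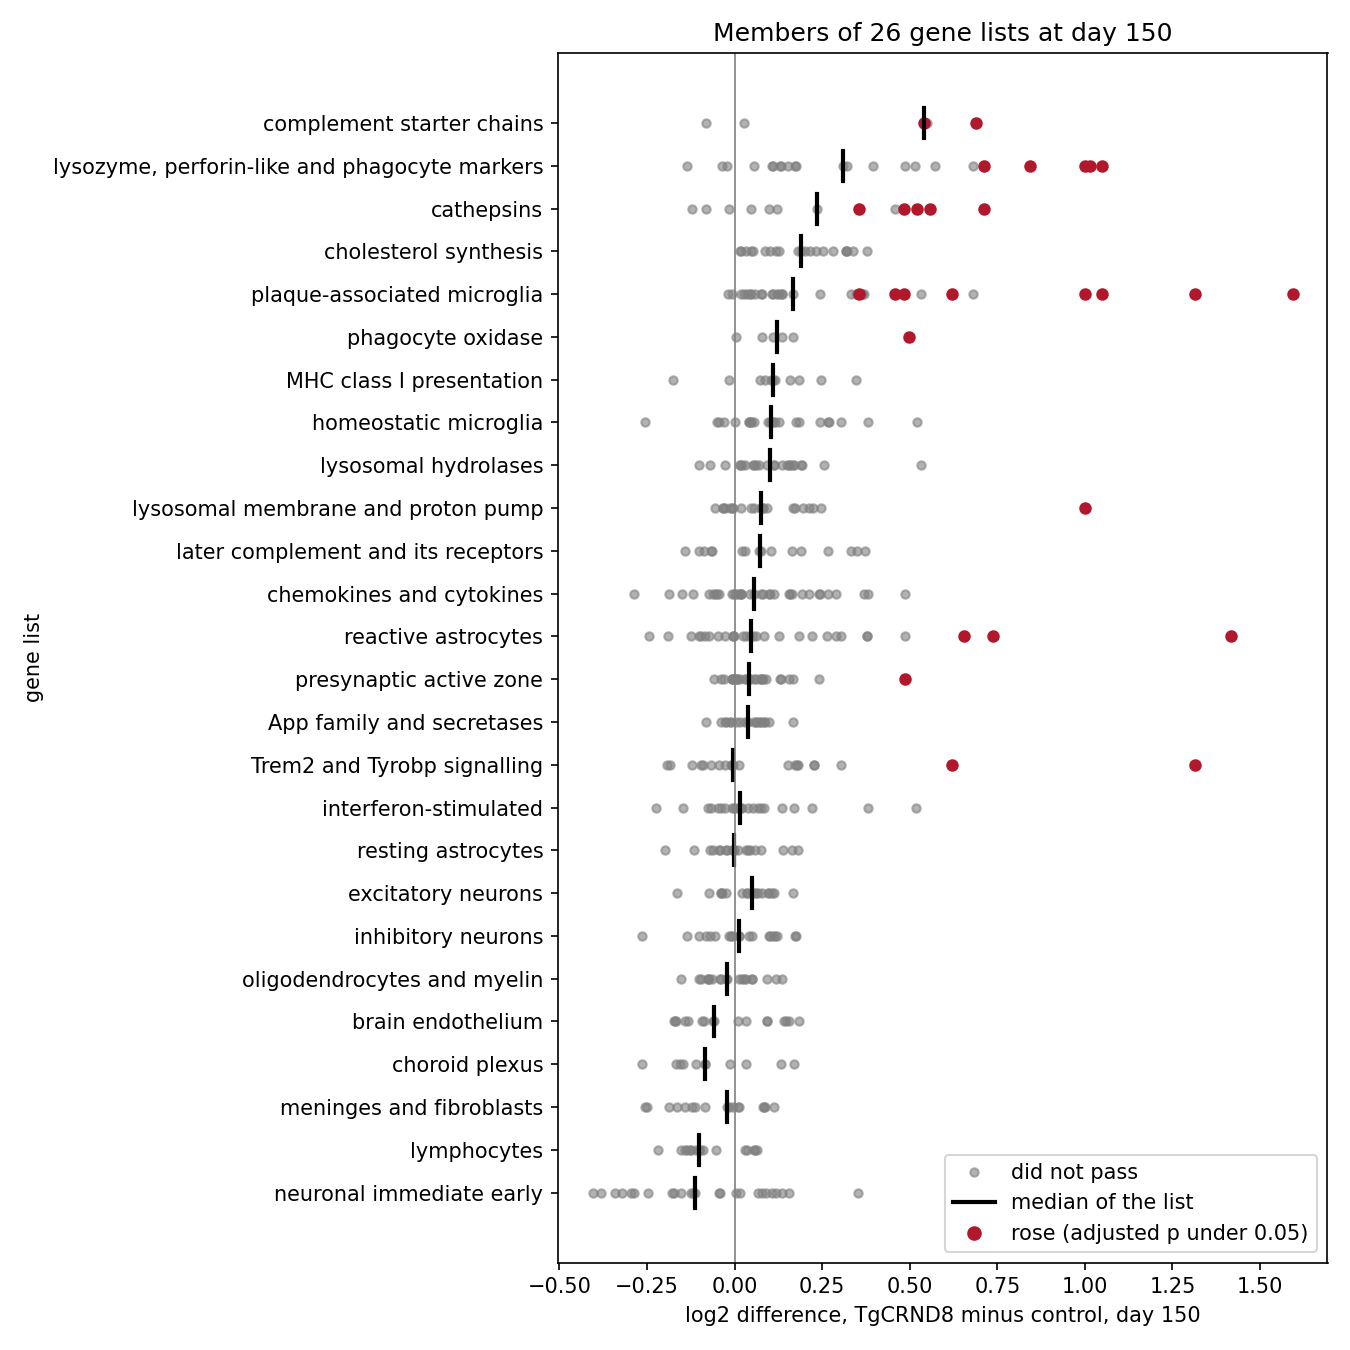
Log2 difference, TgCRND8 minus control at day 150, of each measured member of 26 gene lists; coloured points rose at an adjusted p under 0.05, and the bar of each list is its median. The medians of the complement starter, phagocyte, cathepsin, cholesterol and plaque-associated microglia lists lie at 0.17 or more. Those of the excitatory neuron, inhibitory neuron, myelin and endothelial lists lie near 0, and that of the immediate early list at -0.11.

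Antigen presentation, interferon and cytokine lists held 0 genes that passed. Of 11 genes of MHC class I presentation 9 were higher (median 0.11). B2m, the light chain of class I, read 9.42, 9.39, 9.56 and 9.54 on the TgCRND8 arrays and 8.94, 9.09, 9.24 and 9.27 on the control arrays (difference 0.35, limma adjusted p = 0.102). MHC class II genes were evenly split, 4 higher and 4 lower (median -0.02). Of 23 interferon-stimulated genes 14 were higher (median 0.02). Irf8, also a transcription factor of the myeloid lineage, read 4.72, 4.53, 4.47 and 4.98 in TgCRND8 forebrain and 4.18, 4.28, 3.95 and 4.21 in control forebrain (difference 0.52, limma adjusted p = 0.126). Irf8 passed with the mean of its probe sets (limma adjusted p = 0.00304), with array weights (0.0273) and on the day 150 arrays with the replicate block (0.0391). Of 35 chemokine, cytokine and related receptor genes 24 were higher (median 0.06). At an unadjusted p under 0.05, 9 of them were higher and 2 lower, against 1.97% and 2.4% of all genes. Of this list 3 were higher without overlap, against 1.53% of all genes. Cd14, a co-receptor for bacterial lipid, read 5.37, 5.07, 5.35 and 5.03 in TgCRND8 forebrain and 4.85, 4.86, 4.66 and 4.50 in control forebrain (difference 0.49, limma adjusted p = 0.102, and 0.0438 with array weights). The cytokine genes Tnf and Il1b, named after their values were seen, differed by -0.15 and -0.07.

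Among astrocyte genes, the filament genes Gfap and Vim and the receptor gene Osmr rose. Gfap read 8.26, 8.57, 8.70 and 8.72 on the TgCRND8 arrays and 6.94, 7.13, 7.31 and 7.20 on the control arrays, a rise of 1.42 or 2.67-fold (SE 0.14, limma adjusted p = 2.14e-06). Its other 2 probe sets gave 1.64 and 1.46. Vim, expressed in reactive astrocytes, endothelium and microglia, read 7.36, 7.02, 7.25 and 7.18 in TgCRND8 forebrain and 6.46, 6.39, 6.37 and 6.65 in control forebrain (rise 0.74, SE 0.12, limma adjusted p = 0.00258), with its other probe sets at 0.68 and 1.01. The 3 other intermediate filament genes measured did not pass, among them Nes, the nestin gene, at -0.01 (6.14 in TgCRND8, 6.15 in control).

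Osmr, the receptor chain for oncostatin M, was dim, at 4.29, 3.91, 3.78 and 3.99 on the TgCRND8 arrays and 3.23, 3.39, 3.26 and 3.48 on the control arrays, and rose by 0.65 (SE 0.10, limma adjusted p = 0.00258). Its 2 other probe sets, dimmer still, differed by -0.06 and 0.03. In the oncostatin M, gp130 and STAT3 list Osmr was the 1 of 19 that passed (10 higher, 9 lower, median 0.02), where 0.121% of all genes rose. Stat3, the transcription factor at the end of that pathway, read 8.03, 7.89, 7.85 and 7.96 in TgCRND8 forebrain and 7.83, 7.60, 7.67 and 7.60 in control forebrain, a difference of 0.26 without overlap (limma adjusted p = 0.999). The ligand gene Osm differed by -0.10 (4.69 in TgCRND8, 4.80 in control).

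Of 30 reactive astrocyte genes 18 were higher, 12 lower and 3 rose, with a median of 0.05, where 0.121% of all genes rose. At an unadjusted p under 0.05, 9 were higher and 1 lower, against 1.97% and 2.4% of all genes. Without overlap 6 were higher and 1 lower, against 1.53% and 1.46% of all genes. Of the members given next, Cd44 and Lcn2 were named after their values were seen. Serpina3n, a secreted protease inhibitor of reactive astrocytes, read 8.46, 8.35, 8.29 and 8.45 on the TgCRND8 arrays, against 8.12, 8.03, 8.14 and 8.11 on the control arrays. Its groups did not overlap, but the difference of 0.29 did not pass (limma adjusted p = 0.182, and 0.045 with array weights). Cd44, the hyaluronan receptor, differed by 0.38 (4.49 in TgCRND8, 4.11 in control, limma adjusted p = 0.953), and Lcn2, a secreted iron-binding protein, by -0.10 (2.75 in TgCRND8, 2.85 in control). Of 21 resting astrocyte genes 9 were higher, 12 lower and 0 passed (median -0.0024). The glutamate transporter gene Slc1a2 differed by -0.04 (11.85 in TgCRND8, 11.89 in control, 95% interval -0.22 to 0.13).

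The genes of cholesterol synthesis all lay on the same side, and 0 passed. All 21 measured were higher in TgCRND8 forebrain, 10 at an unadjusted p under 0.05 and 6 without overlap between groups, and the median was 0.19. Over all genes 50.1% were higher, 1.97% were higher at that unadjusted p and 1.53% were higher without overlap. These genes are known to be regulated together, so the members do not count as independent. The list was also chosen with earlier results of these data known. Stard4, a carrier of cholesterol between membranes, read 7.45, 7.54, 7.54 and 7.47 on the TgCRND8 arrays and 7.07, 7.13, 7.14 and 7.15 on the control arrays (difference 0.38, limma adjusted p = 0.136, and 0.0328 with array weights). Hmgcs1, the synthase that makes HMG-CoA, read 10.72, 10.47, 10.53 and 10.63 in TgCRND8 forebrain, against 10.29, 10.23, 10.14 and 10.40 in control forebrain (difference 0.32, limma adjusted p = 0.687). Fdft1, which makes squalene, read 9.26, 9.16, 9.17 and 9.24 on the TgCRND8 arrays, against 9.04, 8.83, 8.87 and 8.81 on the control arrays (difference 0.32, limma adjusted p = 0.476). Neither gene's groups overlapped. At the other end of the list, Cyp51 (0.03), Lss (0.02) and Tm7sf2 (0.02) were nearly level.

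The Hmgcs1 window printed above held the sterol response letters at -137 and the CCAAT box 4 times. Sterol response letters stood in 3 of the 17 cholesterol genes with a window (17.6%), against 4.7% of measured genes and 4.4% of all windows, and the CCAAT box in 16 of 17 (94.1%), against 42.0% and 37.4%. In the windows of the 18 genes that rose the CCAAT box stood in 6 (33.3%) and the sterol response letters in 2 (11.1%), those of Ctsc and Gfap. Of 18 genes of sterol transport 13 were higher and 0 passed (median 0.07), with Abca1, which exports cholesterol, at 0.08 (7.75 in TgCRND8, 7.68 in control).

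Rims1 was the gene that rose whose known role is in neurons, where its protein organises the release sites of synaptic vesicles. It read 9.40, 9.31, 9.35 and 9.35 on the TgCRND8 arrays and 8.78, 8.81, 8.84 and 9.03 on the control arrays (rise 0.49, SE 0.085, limma adjusted p = 0.00762, 6 of 8 fits). A second bright probe set of Rims1 differed by 0.38 (8.99 in TgCRND8 and 8.60 in control forebrain, limma adjusted p = 0.375 over all probe sets). Of 28 presynaptic genes 21 were higher and 7 lower (median 0.04), and Rims1 was the 1 that passed, where 0.121% of all genes rose. Its relatives Rims2 (8.32 in TgCRND8, 8.16 in control) and Rims3 (7.85 in TgCRND8, 7.76 in control) differed by 0.16 and 0.09, and the vesicle genes Syp and Snap25 by 0.07 and 0.08.

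Other neuronal genes were near level. Of 19 markers of excitatory neurons 13 were higher (median 0.05), of 20 markers of inhibitory neurons 11 (median 0.01), and of 24 postsynaptic genes 16 (median 0.02), with 0 passing in these lists. Of 25 immediate early genes, which neurons transcribe soon after activity, 15 were lower and 0 passed (median -0.11). Fos read 8.41, 7.80, 7.33 and 8.61 on the TgCRND8 arrays and 8.34, 8.27, 8.37 and 8.54 on the control arrays (difference -0.34, 95% interval -0.88 to 0.20). Arc, which acts at active synapses, read 7.29, 6.82, 6.55 and 7.62 in TgCRND8 forebrain, against 7.45, 7.28, 7.35 and 7.74 in control forebrain (difference -0.38, 95% interval -0.88 to 0.12). In both genes TgCRND8 arrays 2 and 3 lay below all control arrays and arrays 1 and 4 did not. The mean of the whole list spanned 6.40 to 7.05 over the TgCRND8 arrays, against 6.69 to 6.90 over the control arrays.

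Mouse genes that make and process amyloid precursor protein did not pass. Of 19 members 13 were higher (median 0.04), with Bace1, the β-secretase, at 0.10 (7.62 in TgCRND8, 7.52 in control, 95% interval -0.15 to 0.34). Of 14 peptidases that degrade amyloid β 9 were higher and 0 passed (median 0.04), with Ide, the insulin-degrading enzyme, at 0.07 (7.76 in TgCRND8, 7.69 in control). Of 30 genes at Alzheimer risk loci, 16 were higher (median 0.02) and 1, Trem2, rose, against 0.121% of all genes.

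Lists of other cell types held 0 genes that passed. Of 20 oligodendrocyte and myelin genes 9 were higher (median -0.02), of 17 endothelial genes 8 (median -0.06), and of 13 pericyte and smooth muscle genes 6 (median -0.0086). Blood-borne cells also express Ptprc, Cd52 and Lyz1, and whether they added to these rises was not tested. Their lists were dim, with median levels of 3.35 (lymphocytes) and 3.69 (neutrophils and monocytes), against 5.38 over all genes. Of 16 lymphocyte genes 5 were higher (median -0.10), and their mean signal was 4.10 to 4.24 on TgCRND8 and 4.16 to 4.30 on control arrays. Of 15 neutrophil and monocyte genes also 5 were higher (median -0.08), with a mean signal of 3.64 to 3.76 on TgCRND8 and 3.68 to 3.87 on control arrays. None of their defining genes passed, as in Cd3e of T cells (5.36 in TgCRND8, 5.49 in control), Ms4a1 of B cells (3.10 in TgCRND8, 3.20 in control), S100a8 of neutrophils (3.22 in TgCRND8, 3.22 in control) and Ccr2 of monocytes (4.92 in TgCRND8, 5.03 in control).

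Border macrophages and tissue that a dissection can carry along were checked in the same way. Border macrophage genes gave 5 of 13 higher (median -0.02), and Mrc1, their mannose receptor, differed by 0.18 (3.94 in TgCRND8, 3.76 in control, 95% interval -0.07 to 0.43). Choroid plexus genes gave 3 of 11 higher (median -0.09), and meningeal genes 6 of 17 (median -0.02). Ttr, the transthyretin gene of the choroid plexus, read 12.99, 12.24, 12.66 and 12.43 on the TgCRND8 arrays and 12.93, 12.68, 12.70 and 13.05 on the control arrays, groups that overlapped.

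With 1 probe set per gene, no gene passed as lower by limma, and the smallest p values in that direction belonged to Glt8d2 and Prmt3. Glt8d2, a glycosyltransferase-like protein, read 5.27, 5.34, 5.38 and 5.46 on the TgCRND8 arrays and 5.72, 5.79, 5.66 and 5.69 on the control arrays (difference -0.36, SE 0.083, limma adjusted p = 0.126). Prmt3, an arginine methyltransferase, read 5.94, 5.87, 5.85 and 6.0 in TgCRND8 forebrain, against 6.50, 6.42, 6.60 and 6.87 in control forebrain (difference -0.68, SE 0.16, limma adjusted p = 0.139). Neither gene's groups overlapped. Prmt3 passed as lower when the 8 day 150 arrays were fitted alone (limma adjusted p = 0.00673), and both genes passed with array weights (limma adjusted p = 0.0333 for Glt8d2 and 0.036 for Prmt3). The Prmt3 difference was -0.81 at day 70 and -0.29 at day 80, so it was not largest at the oldest age, and its 4 dimmer probe sets differed by -0.22 to -0.02. The other probe sets of Glt8d2 differed by -0.08 (4.92 in TgCRND8, 5.0 in control) and -0.12 (2.51 in TgCRND8, 2.63 in control), with overlap between groups.

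When all 45037 probe sets were tested, 1 passed as lower, a dim probe set of Leng9, which was named after its value was seen. It read 4.02, 3.85, 3.87 and 3.84 on the TgCRND8 arrays and 4.33, 4.45, 4.59 and 4.16 on the control arrays, without overlap (difference -0.49, limma adjusted p = 0.0232). The brightest Leng9 probe set, which stands for the gene above, differed by -0.08 (5.05 in TgCRND8, 5.14 in control), and another by 0.0008.

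Same-numbered TgCRND8 and control arrays deviated together at day 150, so the comparison was also made with replicate number as a block. With the block 31 genes rose and 0 fell, all 22 genes above and 9 more. By limma with the block, the adjusted p was 0.00139 for C1qb, 0.00431 for Lyz2, 0.0079 for Ly86, 0.013 for Rnase4, 0.016 for Ctsh and 0.0365 for B2m. It was 0.0053 for S100a6, 0.0147 for Lgals1 and 0.00629 for Tmem176a, and the first 2 of these were outside the naming rule and were chosen after their values were seen. Ly86, a myeloid surface protein related to Toll-like receptor partners, was higher in the 4 pairs by 0.79, 0.52, 0.83 and 0.57. S100a6, a calcium-binding protein, was higher by 0.31, 0.57, 0.87 and 0.57, and Lgals1, the galectin-1 gene, by 0.55, 0.41, 0.48 and 0.21. Without the block Lgals1 overlapped between groups, at 7.38, 7.74, 8.03 and 7.57 in TgCRND8 and 6.83, 7.33, 7.55 and 7.36 in control forebrain (limma adjusted p = 0.999). Tmem176a, next to Tmem176b in the genome, was higher by 0.31, 0.31, 0.65 and 0.44.

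The block was also run on the 8 day 150 arrays alone, a setting chosen after seeing the data. Then 31 genes rose and 1, Prmt3, fell (limma adjusted p = 0.00387). That fit kept 20 of the 22 and lost Ctsd and Trem2 (limma adjusted p = 0.119 and 0.156). Of the 9 it lost Tmem176a, Lgals1 and B2m (limma adjusted p = 0.0786, 0.0836 and 0.13).

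**Figure D4:**
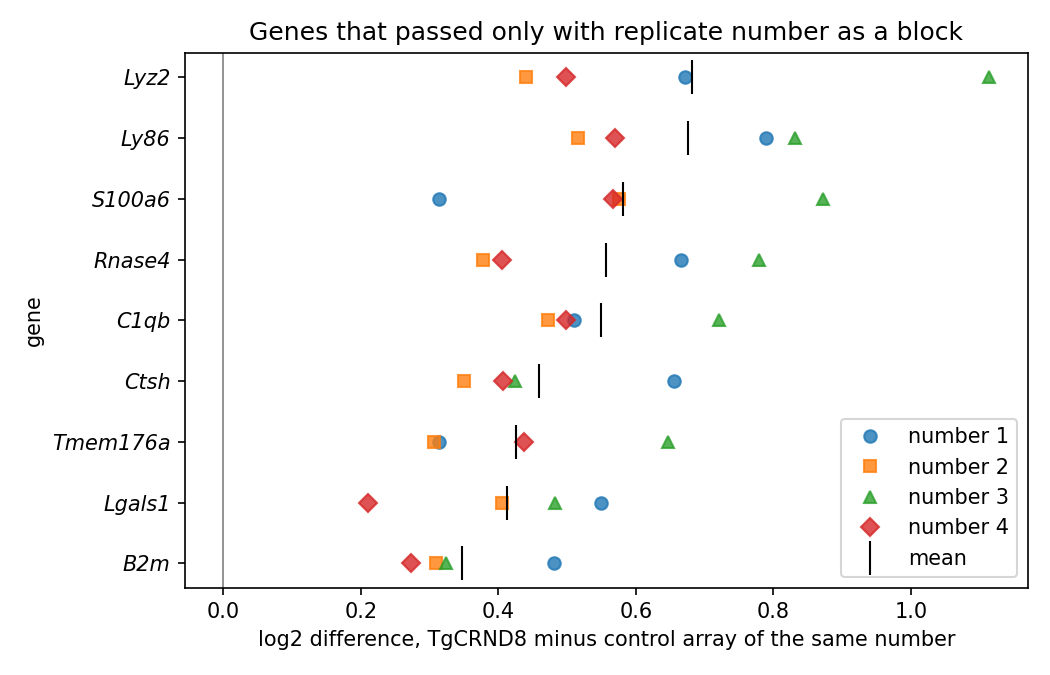
Log2 difference between the TgCRND8 and the control array of the same replicate number at day 150, for the 9 genes that passed with that number as a block and not without it. Each gene is above 0 in 4 of 4 pairs, which choosing genes by the block on these same arrays favours. The lowest value is 0.21 for Lgals1 and the highest 1.11 for Lyz2.

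The genotype difference of all 22 genes was larger at day 150 than at day 70 and than at day 80, which choosing genes by their day 150 rise favours. It was above 0 for 18 of the 22 at day 70 and for 17 at day 80. A direct test of the change, day 150 against the mean of the younger ages, passed for 2 genes (0.011% of those tested), where 5.75% had an unadjusted p under 0.05. These were Cst7, with a change of 1.53 (SE 0.13, limma adjusted p = 1.33e-07), and Gfap, with 1.21 (SE 0.17, limma adjusted p = 0.00208). Cst7 differed by 0.07 at day 70 and 0.06 at day 80, and Gfap by 0.10 and 0.32. Tyrobp (0.16, 0.08 and 1.31 at the 3 ages) had a change of 1.20 that did not pass without a replicate block (limma adjusted p = 0.0817). Ptprc (0.09, -0.07 and 0.71) had a change of 0.70 (limma adjusted p = 0.122, likewise without the block). Rims1 differed in shape, with 0.35 at day 70, -0.06 at day 80 and 0.49 at day 150. The ages were not alike in Xist, which was low on 1 control array of day 70 and on 2 TgCRND8 and 2 control arrays of day 80, and its part in the change was not tested.

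**Figure D5:**
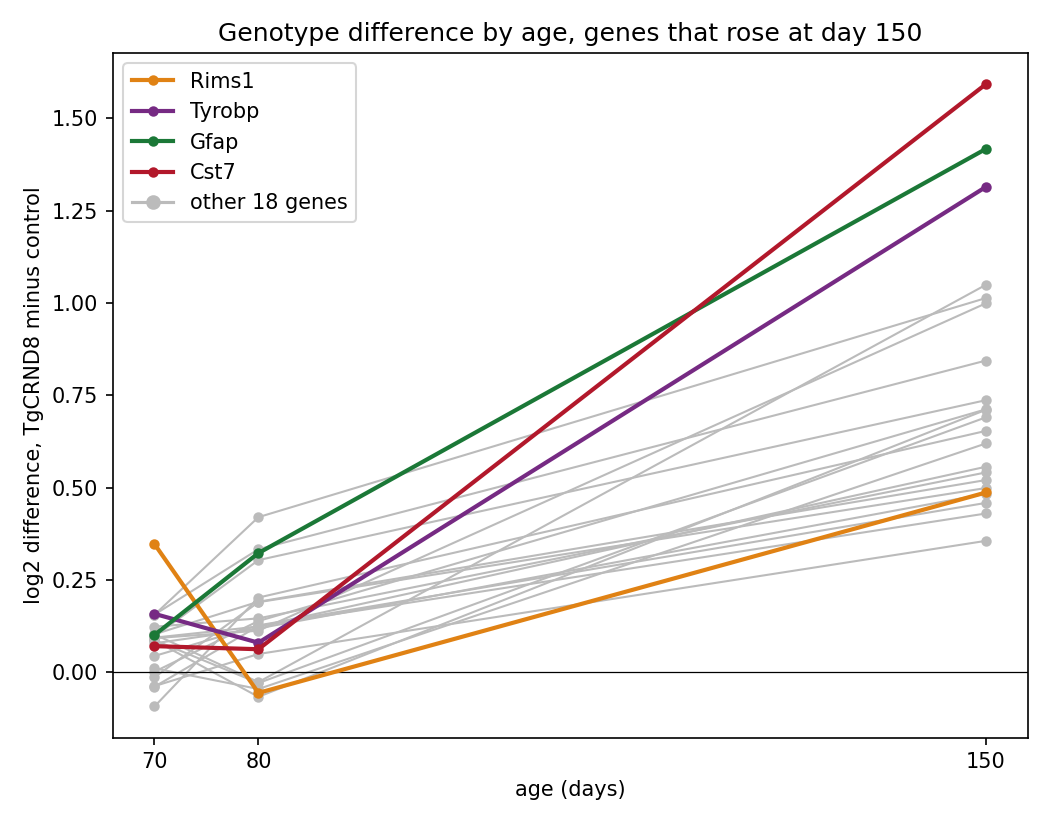
Log2 difference, TgCRND8 minus control, of the 22 genes that rose at day 150, at 70, 80 and 150 days of age; each line joins the differences of group means of 1 gene (4 arrays per group). The lines of Cst7, Gfap and Tyrobp end at 1.59, 1.42 and 1.31, and that of Rims1 starts at 0.35 and dips to -0.06.

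Within the TgCRND8 group no single animal led all 22 genes. Array 2 was the lowest TgCRND8 array for 12 of the 22 and the highest for 0, array 1 was the highest for 6, and arrays 3 and 4 for 8 each. The mean of the 22 relative to the control level was 0.77, 0.63, 0.84 and 0.80 on TgCRND8 arrays 1 to 4, against -0.05, -0.05, 0.03 and 0.07 on the control arrays. Array 1 was highest for Cst7, Mpeg1, Osmr and Vim among others, array 3 for Tyrobp, Lyz1, Ptprc and Cd52, and array 4 for Gfap, Cd68 and Trem2. The SD was larger among TgCRND8 than among control arrays for 15 of the 22 (median SD 0.14 and 0.12).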

How the data were processed

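Forebrain RNA was labelled as biotinylated cRNA by in vitro transcription and hybridised to Affymetrix mouse arrays, 1 array per mouse, per the labels' protocols. The deposited values were log2 signals in a table of the whole series. Array medians were near equal as deposited, and for the authors' normalization no method is given in the sources used here, and array number limits the precision. Of 45101 probe sets, 64 controls were left out. One gene symbol was annotated for 34945 probe sets (34741 matched a RefSeq gene), several for 932 and none for 9160. Each of 18193 genes was read from its probe set of highest mean across the 24 arrays.

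Group means of the 24 arrays were fitted with limma 3.58.1 in R 4.3.3 (18 residual degrees of freedom), so that the 6 groups share 1 estimate of the spread. Adjusted p is Benjamini-Hochberg over all genes, with a threshold of 0.05. The labels do not say which arrays share a litter or batch, so p-values measure the spread between these mice. Code was tested on simulated data.

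Named genes were those that passed, the 10 smallest p among higher and among lower genes that did not, members of 45 gene lists (792 of 871 measured) that passed, had the 4 smallest p or came first, and genes that passed for the change. Outside that rule, and chosen after their values were seen, are Xist, S100a6, Lgals1, Leng9 and the list members Abca1, Bace1, C1ra, Ccr2, Cd44, Cd81, Clec7a, Csf1r, Ctsl, Cyp51, Il1b, Lcn2, Lss, Ms4a1, Plcg2, Snap25, Syk, Syp, Tm7sf2 and Tnf. The members and lists were chosen with earlier results of these data known.

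Replicate numbers come from the sample titles, which do not say what a number shares. At day 150 deviations of same-numbered arrays correlated at 0.256, 0.194, 0.137 and 0.217 across genes. Of the control arrays, each TgCRND8 array correlated best with the one of its own number. At day 80 the correlations ran from -0.231 to 0.479, with 3 of 4 over 0.1, and at day 70 from -0.321 to 0.292, with 2 of 4 over 0.1. Over all groups the median was 0.135 for 60 same-numbered pairs and -0.044 for 180 others.

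Alternatives were quantile normalization, median centring, a filter on the dimmest 40% of genes, the mean of probe sets, all probe sets, trended and robust eBayes, array weights, the replicate block, the day 150 arrays alone and leaving out each array. Promoter windows were searched with Python 3.11.15. Some items are not reported here.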

Additional observations from a re-analysis of the deposited data

Results flagged for a closer look

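Each day 150 group of 4 arrays was searched for a single array far from the other three, over the 90 genes with values above. This found 8 of 180 groups, and chance gives about 1 in 20. TgCRND8 array 2 was low for C1qa (7.77, others 7.89 to 7.89) and Cd9 (8.20, others 8.45 to 8.49) and high for Osm (5.02, others 4.56 to 4.62). TgCRND8 array 3 was high for Lcn2 (3.15, others 2.60 to 2.63) and Rnase4 (7.36, others 7.04 to 7.07) and low for Slc1a2 (11.73, others 11.89 to 11.89). Control array 3 was low for Cd68 (4.16, others 4.52 to 4.59), and control array 2 was low for Apoe (12.02, others 12.16 to 12.19). The C1qa, Cd9 and Cd68 rises passed in each of the 8 fits that left out an array.

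The genotype difference changed with age for Cst7, by 1.53, and for Gfap, by 1.21, as tested directly by limma. Among probe sets that the gene comparison did not use because they carry several gene symbols or none, 3 passed as higher in TgCRND8 forebrain over 45037 probe sets, with differences of 0.48, 0.70 and 0.51.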

How the results depend on the processing

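The count of genes that passed at day 150 was 22 with median centring, 22 with quantile normalization (21 of them shared), 22 with trended and robust eBayes (21 shared), 21 with the mean of probe sets (17 shared), 17 without the dimmest 40% of genes, 24 on the day 150 arrays alone (18 shared) and 32 over all probe sets, 31 higher and 1 lower. It was 35 with array weights, 33 higher and 2 lower. Leaving out 1 array gave 12 to 20, the lowest without control array 2. With the replicate block it was 31, and all 22 were among them. The filter itself removed Cst7, Osmr, Ptprc, Ctse and Cd52. Calls were lost for Osmr, Ptprc, Ctsc, Trem2 and Ctse under the mean of probe sets, for C1qc, Lyz1, Ctsd and Trem2 on the day 150 arrays alone, for Ctsd and Trem2 on those arrays with the replicate block, for Tmem176b under quantile normalization and for Cd52 under trended and robust eBayes. Each of the 22 genes that rose stayed higher under every gene-level setting in which it was tested, while dimmer probe sets of Trem2, Ptprc, Ctse and Osmr were lower. The cause of these shifts was not tested.

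The change between ages passed for 1 gene, Gfap, without the dimmest 40% of genes, a filter that removes Cst7, for 5 probe sets when all were tested, and for 2 to 3 genes when 1 array was left out. With the replicate block it passed for 4 genes, adding Tyrobp (limma adjusted p = 4.38e-05) and Ptprc (0.0342). That block tied same-numbered arrays of all ages together, although at the younger ages not every same-numbered pair correlated over 0.1. The number of arrays limits the precision, with 4 per group and a median SE of 0.098.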
